A study of Mus musculus with 50 samples.

Results

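Irf2bpl (interferon regulatory factor 2 binding protein-like, ENSMUSG00000034168) is 1 gene of the 12185 in a table of liver expression over 50 libraries. It was chosen by its measured values, which spread widely for their level over these libraries, and because the study names it, so the spread of Irf2bpl itself is described below without a test. The tests concern 11435 other genes whose mean reached 1 normalised CPM (reads per library size, scaled between libraries), and ask which of them varied with Irf2bpl from library to library. The libraries came from livers of male mice whose genome is C57BL/6J apart from A/J-derived segments of chromosomes 4 and 6 that differ between animals, fasted overnight before the caudate lobe was taken. The sample labels call the animals F2 and adult, whereas the study's methods describe N2 mice, 5 weeks old. All libraries form 1 group, because no genotype class is used here, and Irf2bpl on chromosome 12 lies outside the segregating chromosomes. The titles carry 48 animal numbers, 2 of them on 2 libraries each.

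Irf2bpl belongs to a small family of nuclear proteins with an N-terminal zinc finger and a C-terminal RING domain. Its relatives Irf2bp1 and Irf2bp2 are corepressors that bind the transcription factor Irf2. Irf2bpl is best known from the hypothalamus, where it takes part in the onset of puberty and was named Eap1, and from a human neurodevelopmental disorder caused by truncation of the protein. On GRCm38 the gene lies on the minus strand of chromosome 12 from 86880701 to 86884798 as a single exon of 4098 bases. The coding sequence takes 2325 of these bases (86881573 to 86883897), between untranslated stretches of 901 and 872 bases. GC content of the exon is 59.96%, higher than in 96.5% of the genes in the table. No tested gene overlapped it in the GENCODE M21 annotation.

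The promoter window of Irf2bpl is shown because it shares a motif, at nearly the same place, with Epha2, a gene that varied with it, a match seen after the windows had been searched. Each window holds the 250 bases before the RefSeq start and the 50 bases from it, on the strand of the gene, in GRCm38.p6. The Irf2bpl window is chr12:86884765-86885064 (minus strand) and the Epha2 window is chr4:141300971-141301270 (plus strand). Capitals mark the cAMP response element TGACGTCA, a palindrome that CREB-family factors can bind.
Irf2bpl: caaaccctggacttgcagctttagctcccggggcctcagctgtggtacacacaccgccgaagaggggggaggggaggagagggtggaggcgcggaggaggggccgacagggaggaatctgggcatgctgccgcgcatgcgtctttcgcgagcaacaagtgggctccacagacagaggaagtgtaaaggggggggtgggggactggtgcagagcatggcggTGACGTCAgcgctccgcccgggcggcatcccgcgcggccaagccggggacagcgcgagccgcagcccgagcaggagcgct
Epha2: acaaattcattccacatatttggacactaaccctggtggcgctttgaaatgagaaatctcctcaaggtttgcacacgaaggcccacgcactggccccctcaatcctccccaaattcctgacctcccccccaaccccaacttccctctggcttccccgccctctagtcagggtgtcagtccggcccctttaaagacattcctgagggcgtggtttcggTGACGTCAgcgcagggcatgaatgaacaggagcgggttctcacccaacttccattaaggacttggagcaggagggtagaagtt
The first base of the element stood 30 bases before the RefSeq start in Irf2bpl and 33 bases before it in Epha2. The last 34 bases of the Irf2bpl window are the first bases of the GENCODE transcript. The element occurred on either strand in 1.79% of 32851 windows of this length and in 2.92% of the windows of tested genes. It occurred in 1.65% of 242 windows of the genes that rose with Irf2bpl and in 3.85% of 182 windows of those that fell. Windows were given for 163 of the genes that rose and 134 of those that fell. The E-box CACGTG, the D-box TTATGTAA and the FOXO element GTAAACA were searched on both strands as well and had no match in the Irf2bpl or Epha2 window, so no match overlapped another there. Irf2bp1 held a D-box, an element of 0.938% of all windows, and Irf2bp2 held none of the 4 motifs. A match is a description of the letters and not a site.

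Counted reads per library ran from 11965594 to 29976557 with a median of 13620584, and 1 read was worth 0.0317 to 0.0864 normalised CPM. A count of 0 therefore allows up to 0.0951 to 0.259 normalised CPM (3 reads), a limit that covers counting error only. The library numbered 24 stood apart in male-type against female-type liver genes. Its score was -4.54, the next lowest was -3.04, and its summed female-type genes came to 839 normalised CPM where the next highest library had 517. Irf2bpl in that library was 12.01, rank 19 from the lowest, and results without it are given with the settings tried. Bulk liver RNA cannot tell fewer cells of a type from less RNA per cell. Libraries are the unit of every test, and p-values measure the spread between them.

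Irf2bpl was expressed in every library. The lowest value was 7.25 normalised CPM (134 reads, library numbered 9), the median was 13.03 and the highest was 22.6 (289 reads, library numbered 50), a range of 3.12-fold. The mean was 13.5 ± 3.67 (SD, n = 50), with quartiles at 10.9 and 15.1, which placed the gene at rank 5486 of the table by mean. Its coefficient of variation was 27.1%. Among the 200 genes closest to it in level, 95% varied less, with a median of 14.7%. Reads of Irf2bpl ran from 118 to 702 per library with a median of 184, and counting accounted for 6.81% of its variance between libraries. At the low end, the library numbered 17 held 8.65. At the high end, the libraries numbered 12, 43, 21, 51 and 20 held 19.8, 19.8, 19.98, 21.5 and 22.3. Neighbouring libraries in this order differed by less than the counting error (square root of the reads) at all but 3 of the steps. On the log2 scale the SD was 0.36, so 1 SD of Irf2bpl is a factor of 1.28.

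**Figure D1:**
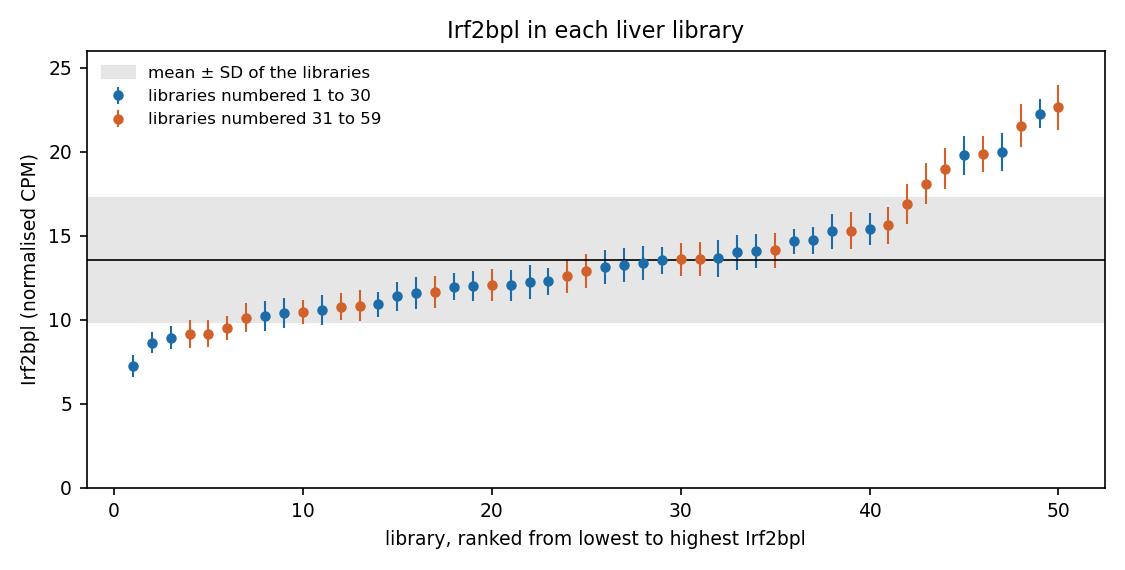
Irf2bpl in normalised CPM (vertical axis, from 0) in each of the 50 libraries, ranked from lowest to highest. Bars are the square root of the reads on the same scale, the line and band are the mean 13.5 ± 3.67 (SD), colours are the sets of library numbers, and both sets spread over most of the range from 7.25 to 22.6.

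No relation of Irf2bpl to the library labels or to measured library properties passed the threshold. In the 28 libraries numbered 1 to 30 the mean was 13.1 ± 3.34 (SD) and in the 22 numbered 31 to 59 it was 14.1 ± 4.07, a difference of 0.08 log2 (limma across all genes, adjusted p = 0.621). Over 7 properties, the clock score, in which Dbp, Nr1d1 and other genes of one phase are set against Arntl and others of the opposite phase, had the largest correlation (r = 0.25, permutation p = 0.0808, rho = 0.26, p = 0.0727). Its Benjamini-Hochberg adjusted p over the 7 was 0.565 for r and 0.509 for rho in this permutation test. Leaving out the 2 libraries with the most extreme scores gave r = 0.26, and within the sets r was 0.24 and 0.28. The slope of a library on GC content gave r = 0.16 (permutation p = 0.276), and the remaining 5 lay between -0.09 and 0.11 (adjusted p = 0.840 for each in a permutation test). Within the sets some of these values differed in sign. The share of the 10 highest genes gave -0.32 in the first set and 0.50 in the second, and male-type minus female-type score gave -0.19 and 0.45, whereas the slope on GC content gave 0.41 and 0.03.

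Neither relative of Irf2bpl was called with it. Per kilobase of exon, Irf2bpl stood at 3.30 ± 0.896 (SD, n = 50), Irf2bp1 at 3.26 ± 0.578 and Irf2bp2 at 6.19 ± 1.70 normalised CPM. Irf2bp1 ran from 4.88 through a median of 8.79 to 12.4 normalised CPM, and its correlation with Irf2bpl was r = 0.12 (permutation p = 0.414; rho = 0.21, p = 0.152; limma adjusted p = 0.771). Irf2bp2 had a coefficient of variation of 27.5%, close to that of Irf2bpl, and ran from 17.8 through 29.8 to 52.7. Its correlation with Irf2bpl was r = -0.03 (permutation p = 0.846; rho = 0.01, p = 0.933; limma adjusted p = 0.960). In the library with the highest Irf2bpl, Irf2bp1 was at 6.66, the rank of 48 from the highest, and Irf2bp2 at 24.6, rank 38. In the library numbered 20, where Irf2bpl was next highest at 22.3, Irf2bp1 was at 10.6 and Irf2bp2 at 18.9.

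Irf2, the transcription factor after which the family is named, did rise with Irf2bpl, as did Irf1. Irf2, which competes with Irf1 at interferon-responsive promoters, ran from 21.99 through 34.7 to 49.2 normalised CPM and rose by 0.16 ± 0.03 log2 (SE) per SD of Irf2bpl (r = 0.58, permutation p = 2e-05; rho = 0.60, p = 1e-05; limma adjusted p = 0.00142). Irf1, the activator, ran from 10.2 through 15.7 to 27.5 and rose by 0.18 ± 0.04 (r = 0.55, permutation p = 3e-05; rho = 0.46, p = 0.00103; limma adjusted p = 0.00379). Leaving out the 2 libraries most extreme in Irf2bpl gave r = 0.56 for Irf2 and 0.49 for Irf1. Within the sets of library numbers it was 0.56 and 0.60 for Irf2 and 0.56 and 0.57 for Irf1. Among the 10 other family members and IRF genes these were the 2 called (20%, against 3.36% of all tested genes). Irf7 and Irf8, factors of interferon and myeloid programmes, had r = -0.26 (adjusted p = 0.355) and -0.29 (adjusted p = 0.298) in the limma fit.

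Across the transcriptome, 384 of 11435 genes (3.36%) varied with Irf2bpl at an adjusted p under 0.05 in limma. Of all genes tested, 213 (1.86%) rose and 171 (1.50%) fell, and 1769 had an unadjusted p under 0.05. The same fit called 666 genes (5.82%) for Irf2bp1, 1067 (9.33%) for Irf2bp2 and 1688 (14.8%) for Irf2. For the other genes that the study names with Irf2bpl it called 96 (0.840%) for Arhgap25, 2907 (25.4%) for Gnmt, 2125 (18.6%) for Rasa3 and 2049 (17.9%) for Capn10. All 213 rising and all 171 falling genes had the same sign of r in both sets of library numbers, in a choice made over all 50 libraries. A fit in which the relation could differ between the sets called 0 of 11435 genes (0.00%, limma), with 700 at an unadjusted p under 0.05 and a smallest adjusted p of 0.741. Of the genes that rose 208 are protein-coding, as are the 171 that fell.

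The 12 genes that rose with the smallest p were Pim1, Pid1, Cbx2, Foxq1, Kcnn2, Zfyve1, Epha2, Slc2a1, Chac1, Zfp36l2, Hes1 and Rara. Pim1, a serine/threonine kinase induced by cytokine signalling, ran from 2.55 through a median of 9.15 to 28.04 normalised CPM and stood at 27.6, the rank of 2 from the highest, in the library with the highest Irf2bpl. It rose by 0.61 ± 0.08 log2 (SE) per SD of Irf2bpl, 1.53-fold, with r = 0.75 and rho = 0.78 (limma adjusted p = 8.55e-07). Pid1, an adaptor protein that dampens insulin signalling in fat cells, ran from 34.1 through 63.4 to 113 and rose by 0.29 ± 0.04 (r = 0.73, adjusted p = 2.84e-06). Both were low in most libraries with low Irf2bpl, and Pid1 was again second highest, at 113, where Irf2bpl was highest.

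Several of the rising genes regulate transcription or mRNA stability. Cbx2, a Polycomb protein that reads methylated histone H3, ran from 3.90 through 7.11 to 14.9 normalised CPM and rose by 0.30 ± 0.04 log2 (r = 0.73). Foxq1, a forkhead factor and, like Irf2bpl, a single-exon gene, ran from 2.05 through 4.22 to 17.4 and rose by 0.52 ± 0.07 (r = 0.72). Hes1, the repressor downstream of Notch, ran from 1.41 through 4.19 to 10.9 and rose by 0.43 ± 0.06 (r = 0.68). Rara, a retinoic acid receptor, rose by 0.27 ± 0.04 (r = 0.68). Zfp36l2, which binds AU-rich elements and promotes decay of mRNA, rose by 0.28 ± 0.04 (r = 0.68).

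The others act at membranes or in metabolism. Epha2, a receptor tyrosine kinase for ephrins whose promoter window is shown above, ran from 8.03 through 20.1 to 30.5 normalised CPM, with its highest value in the library where Irf2bpl was highest, and rose by 0.33 ± 0.05 log2 (r = 0.72). Slc2a1, the glucose transporter GLUT1, ran from 5.78 through 12.8 to 23.3 and rose by 0.33 ± 0.05 (r = 0.71). Chac1, which breaks down glutathione and is induced by Atf4, had few reads (median 29.5), ran from 0.401 through 1.88 to 6.38 and rose by 0.50 ± 0.07 (r = 0.70). Kcnn2, a calcium-activated potassium channel, rose by 0.19 ± 0.03 (r = 0.73), and Zfyve1, a FYVE-domain protein of the endoplasmic reticulum and lipid droplets, by 0.22 ± 0.03 (r = 0.72). Over these 12, the largest adjusted p was 1.94e-05 in the limma fit. Within the sets of library numbers r lay between 0.62 and 0.79 in the first and between 0.63 and 0.81 in the second, and without the 2 libraries farthest in Irf2bpl between 0.65 and 0.75.

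**Figure D2:**
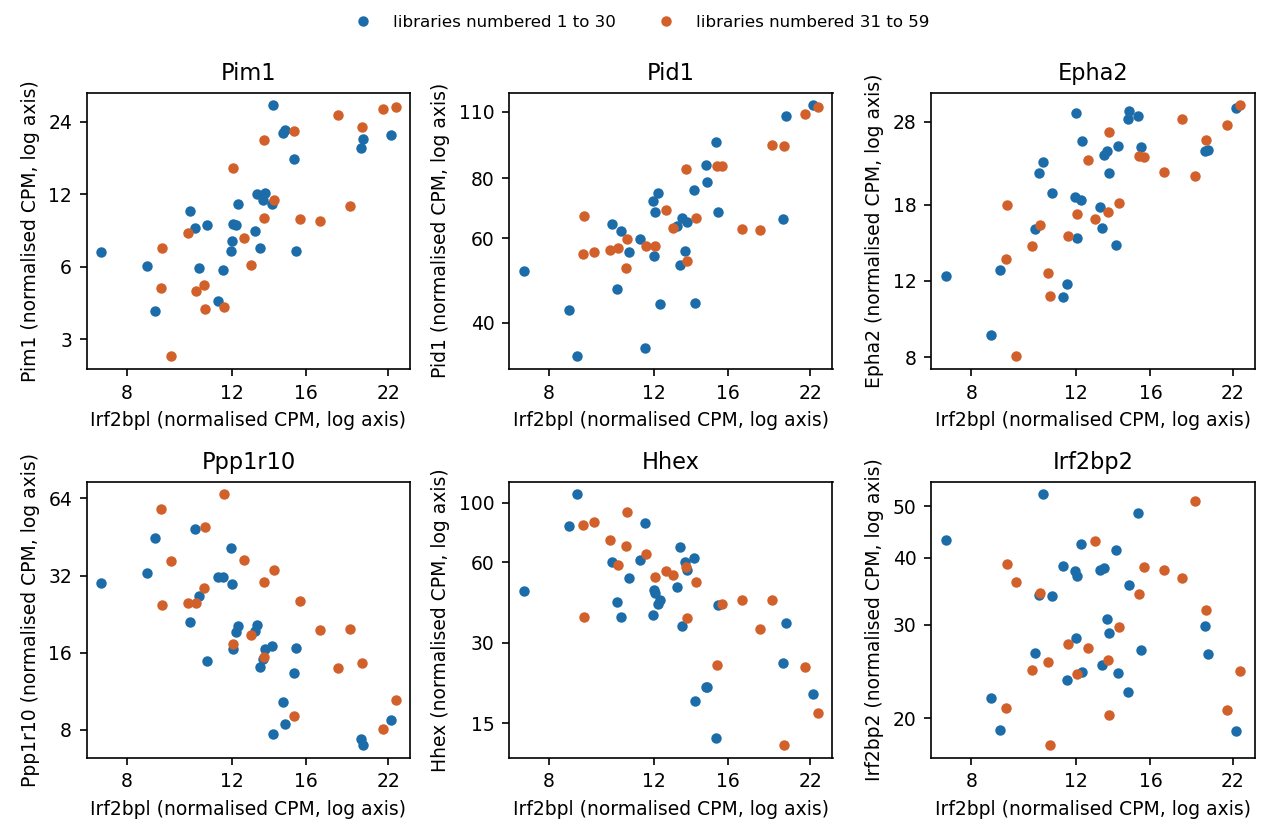
Normalised CPM of Pim1, Pid1, Epha2, Ppp1r10, Hhex and Irf2bp2 (vertical, log axes) against Irf2bpl (horizontal, log axis), 1 point for each of the 50 libraries, coloured by set of library numbers. Pim1, Pid1 and Epha2 go up with Irf2bpl (r = 0.75, 0.73 and 0.72), Ppp1r10 and Hhex go down (r = -0.71 and -0.68), and Irf2bp2 is scattered (r = -0.03).

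The 12 genes that fell with the smallest p were Ppp1r10, Hhex, Zbtb4, Tmed8, Rab30, Mettl6, Klf4, Usp6nl, Mat2a, Zfp780b, Cd83 and Bcl6b. Ppp1r10, a nuclear targeting subunit of protein phosphatase 1, ran from 6.97 through 19.7 to 66.5 normalised CPM and changed by -0.56 ± 0.08 log2 (SE) per SD of Irf2bpl, with r = -0.71 and rho = -0.73 (limma adjusted p = 3.49e-06). Hhex, a homeobox factor of liver and endothelial development, ran from 12.4 through 46.5 to 108 and changed by -0.49 ± 0.07 (r = -0.68, adjusted p = 1.68e-05). In the library with the highest Irf2bpl they stood at 10.4 and 16.4, the ranks of 42 and 48 from the highest. The lowest-Irf2bpl library was not extreme for either, with 29.96 for Ppp1r10 and 46.8 for Hhex.

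The rest include regulators of transcription, Golgi and endosome traffic and methyl group metabolism. The transcription factors Zbtb4, which binds methylated CpG, and Klf4 changed by -0.21 ± 0.03 and -0.32 ± 0.06 log2 (r = -0.65 and -0.62), Klf4 from a low level of 1.54 ± 0.827 normalised CPM (SD, n = 50). Bcl6b, a repressor related to Bcl6, changed by -0.30 ± 0.06 (r = -0.58), and the zinc finger gene Zfp780b by -0.16 ± 0.03 (r = -0.61). Rab30, a small GTPase of the Golgi, changed by -0.29 ± 0.05 (r = -0.62), and Usp6nl, which switches off Rab5, by -0.18 ± 0.03 (r = -0.62). Mat2a, which makes S-adenosylmethionine, ran from 29.6 through 41.7 to 57.4 and changed by -0.14 ± 0.03 (r = -0.63), and the tRNA methyltransferase Mettl6 by -0.15 ± 0.03 (r = -0.63). Cd83, a surface protein of dendritic cells and lymphocytes, ran from 0.862 through 1.87 to 4.82 with its lowest value where Irf2bpl was highest, and changed by -0.27 ± 0.05 (r = -0.59). Tmed8 changed by -0.23 ± 0.04 (r = -0.64). The largest adjusted p of the 12 was 0.00118 in the limma fit, r within the sets lay between -0.84 and -0.53 and between -0.80 and -0.48, and without the 2 libraries farthest in Irf2bpl between -0.71 and -0.51.

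For the 24 genes together, the permutation p was at most 2e-05 for r and 7e-05 for rho (2-sided, 1e-05 being the smallest that 100000 resamples can give). The genes were chosen by their small limma p over these same libraries, so small permutation p-values follow from the choice and are not adjusted for it. They also varied with one another. The median r was 0.62 over the 66 pairs of the rising 12, 0.59 over the 66 pairs of the falling 12, and -0.59 over the 144 pairs of a rising with a falling gene, values that follow in part from each gene's own relation with Irf2bpl.

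**Figure D3:**
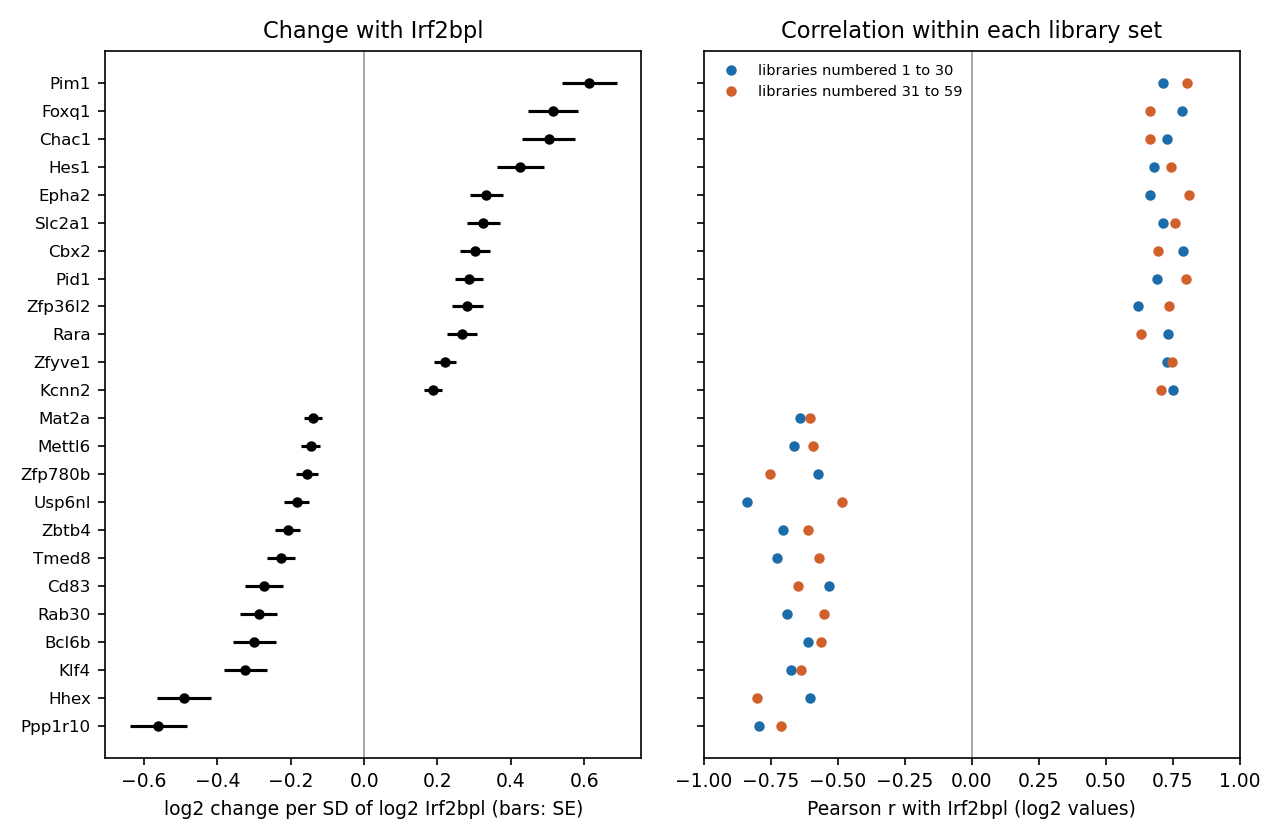
Left, log2 change per SD of log2 Irf2bpl with its SE for the 24 leading genes, from 0.61 for Pim1 to -0.56 for Ppp1r10. Right, Pearson r of each with Irf2bpl within the libraries numbered 1 to 30 and within those numbered 31 to 59, which has the same sign in both sets for all 24. These genes were chosen by p over both sets together.

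Immediate early genes, which respond to stimuli within minutes, held the largest share of called genes of the 27 lists, in both directions. Of 22 tested, 4 rose and 3 fell (31.8%, against 3.36% of all genes), and their median r was -0.02 against 0.00 for all genes. An unadjusted p under 0.05 in limma was reached by 16 of the 22, and 11 had a positive r. Junb, a subunit of AP-1, ran from 3.41 to 33.5 normalised CPM and rose by 0.44 ± 0.08 log2 (r = 0.61, limma adjusted p = 0.000388). Ier2, Zfp36l1 and Klf10 rose as well, Zfp36l1 with its call lost without the 2 libraries most extreme in Irf2bpl (limma adjusted p = 0.0582). The members that fell were the Krüppel-like factors Klf4, Klf2 (-0.29 ± 0.06, r = -0.56, limma adjusted p = 0.00201) and Klf6 (-0.17 ± 0.03, r = -0.56, limma adjusted p = 0.00265). Klf10, of the same family, was among those that rose (r = 0.54). Egr1, Jun and Myc, with r = -0.39, -0.34 and 0.41, were not called.

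Targets of fasting, glucocorticoid and FOXO signalling gave 4 that rose and 1 that fell of 26 (19.2%, against 3.36% of all tested genes). Their median r was -0.08, with 10 positive values. Sgk1, Tsc22d3 and Pdk4 of this list had negative r (-0.41, -0.37 and -0.36) and were not called. Zbtb16, a zinc finger repressor, ran from 1.78 through 23.4 to 60.8 normalised CPM and rose by 0.56 ± 0.13 log2 (r = 0.51, limma adjusted p = 0.00707). Fkbp5, a co-chaperone of the glucocorticoid receptor, ran from 28.7 through 105 to 253.6 and rose by 0.37 ± 0.09 (r = 0.49, limma adjusted p = 0.0134). Klf9 (0.15 ± 0.03) and Sesn1 (0.14 ± 0.03), a sestrin that restrains mTORC1, also rose. Angptl4 fell, a call lost with edgeR (adjusted p = 0.0589), on ranks (limma, 0.203) and without the 2 libraries most extreme in Irf2bpl (limma, 0.105). Igfbp1, which fasting induces, had r = -0.19 (limma adjusted p = 0.554).

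Clock genes gave 3 that rose and 0 that fell of 20 (15%, against 3.36% of all tested genes), with a median r of 0.22 and 16 positive values. Nr1d1, the repressor REV-ERB alpha, ran from 11.7 through 42.6 to 99.4 normalised CPM and rose by 0.49 ± 0.08 log2 (r = 0.64, limma adjusted p = 0.000126). Bhlhe40 rose by 0.37 ± 0.07 (r = 0.60) and Ciart by 0.44 ± 0.13 (r = 0.43, limma adjusted p = 0.0397). The call of Ciart was lost in limma with plain CPM (adjusted p = 0.111), with the clock score as a covariate (0.127) and without the 4 libraries that share an animal number (0.0529). Ciart, like Nr1d1 and Dbp, is itself part of the clock score, so a weaker relation with that covariate is built in. Dbp had r = 0.34 (limma adjusted p = 0.144) and Cry2 r = 0.36 (limma adjusted p = 0.134). With the clock score as a covariate 303 genes were called, 259 of them among the 384, and the part of the time of sampling, which the labels do not give, was not tested. Heat shock and unfolded protein response genes gave 3 that rose of 19 (15.8%, against 3.36% of all tested genes), with a median r of 0.16. These were Chac1, Trib3, a pseudokinase induced by Atf4 (0.30 ± 0.05, r = 0.61), and the transcription factor Xbp1 (0.12 ± 0.02, r = 0.57). Atf4 itself (r = -0.06), Ddit3 (r = -0.01) and Asns (r = 0.21) were not called.

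In lipid metabolism, 2 of 18 sterol and fatty acid synthesis genes rose and 1 fell (16.7%, against 3.36% of all tested genes). Insig1, which retains SCAP in the endoplasmic reticulum, rose by 0.24 ± 0.05 log2 (r = 0.53), whereas the fatty acid elongase Elovl6 changed by -0.19 ± 0.05 (r = -0.50). Sqle, of cholesterol synthesis, had r = 0.22 (limma adjusted p = 0.460). Of 20 PPAR-alpha targets 1 fell (5%, near the 3.36% of all tested genes), the lipid droplet protein Plin2, which ran from 198.4 through 354 to 833 normalised CPM and changed by -0.22 ± 0.05 (r = -0.55, limma adjusted p = 0.00327). Acot1 and Slc25a20 of the same list had r = -0.29 and -0.30 (limma adjusted p = 0.264 and 0.296).

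Among 17 acute-phase genes 1 rose (5.88%, near the 3.36% of all tested genes), Socs3, the feedback inhibitor of cytokine signalling (0.38 ± 0.08 log2, r = 0.56, limma adjusted p = 0.00198), whereas Saa1 had r = 0.00 (limma adjusted p = 0.995). Interferon-stimulated genes gave 0 called of 21 in limma, with 7 at an unadjusted p under 0.05, 1 called by edgeR, a median r of -0.24 and 1 positive value. The smallest p in that list was that of Rsad2, the antiviral protein viperin (r = -0.42, limma adjusted p = 0.0511), which passed the threshold in 9 other settings including edgeR (adjusted p = 0.0439). Usp18 and Igtp had r = -0.38 and -0.36 (limma adjusted p = 0.0907 and 0.131), and Igtp passed with animal number as a covariate (limma adjusted p = 0.0443). In the list of genes linked to Irf2bpl in the hypothalamus only Yy1 (r = 0.21) and Cux1 (r = 0.07) were tested, neither called. Of 140 other single-exon protein-coding genes 6 rose and 2 fell (5.71%, near the 3.36% of all tested genes), among them Sephs2 of selenoprotein synthesis, which rose (0.07 ± 0.02, limma adjusted p = 0.0213), and the Notch-regulated Nrarp (-0.20 ± 0.06, limma adjusted p = 0.0309). With plain CPM both calls were lost in limma (adjusted p = 0.0838 for Sephs2 and 0.103 for Nrarp), and that of Nrarp also with the clock score as a covariate (0.0924).

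**Figure D4:**
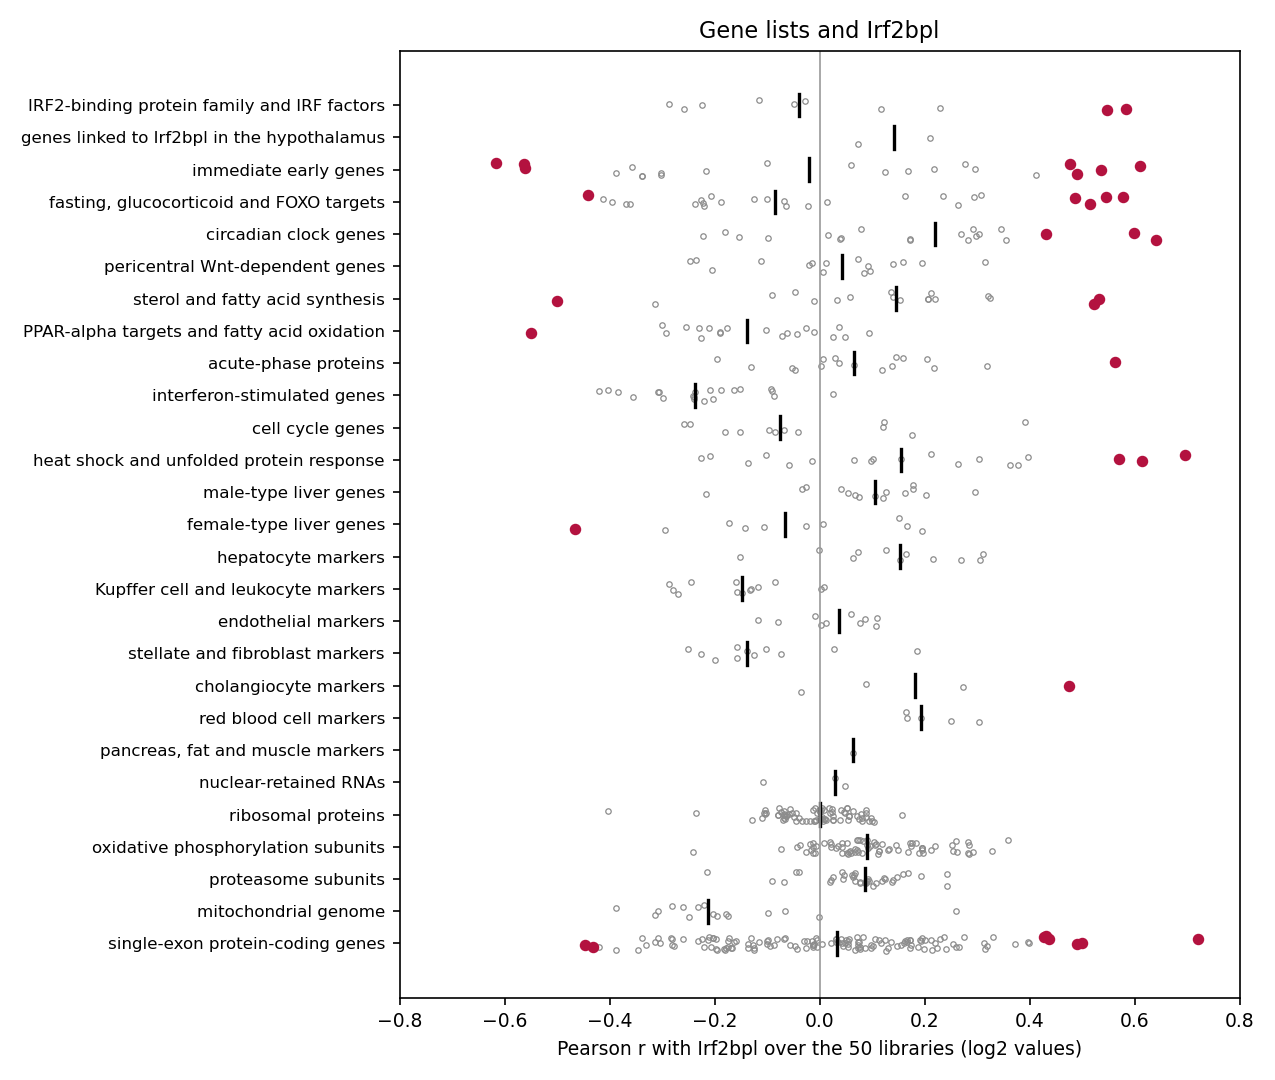
Pearson r with Irf2bpl (horizontal) for every tested member of 27 gene lists, 1 point a gene. Filled points passed an adjusted p of 0.05, black ticks are list medians, and the filled points lie in 11 lists, with immediate early genes on both sides and 16 lists holding none.

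Markers of the cell types of liver were followed beside these results. The share called among all tested genes, 3.36%, is small, so a short list with 0 called says little. Of the hepatocyte markers 0 of 11 were called (limma, 2 at an unadjusted p under 0.05, median r 0.15), and their sum ran from 94868 to 144844 normalised CPM. Kupffer cell and leukocyte markers gave 0 of 13 (2 at an unadjusted p under 0.05, median r -0.15, sum 402 to 703), with Vsig4 and Clec4f at r = -0.29 and -0.25. Endothelial markers gave 0 of 10 (median r 0.04, sum 271 to 426), stellate and fibroblast markers 0 of 11 (median r -0.14, sum 116 to 267) and red blood cell markers 0 of 5 (median r 0.19, sum 94.7 to 302), and edgeR called 0 in each of these lists as well. Of 4 cholangiocyte markers 1 rose (25%, against 3.36% of all tested genes), the transcription factor Sox9 (0.22 ± 0.06 log2, r = 0.48, limma adjusted p = 0.0180). Krt19, Epcam and Spp1, with r = 0.27, 0.09 and -0.04, were not called. The median r of the 4 was 0.18, 2 had an unadjusted p under 0.05 in limma, and their sum ran from 16.99 to 41.8. The part of these cells in the results was not tested. Other lists with 0 called in limma were ribosomal proteins (79), oxidative phosphorylation subunits (75), proteasome subunits (37), genes of the mitochondrial genome (16, median r -0.21), nuclear-retained RNAs (3), pancreas, fat and muscle markers (1), pericentral Wnt-dependent genes (16), male-type liver genes (15) and cell cycle genes (12), with 0 to 4 members of each at an unadjusted p under 0.05 and 0 called by edgeR. Female-type genes gave 1 of 10 (10%, against 3.36% of all tested genes), Acot3, whose call was lost with plain CPM.

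By position, the share of called genes on the segregating chromosomes was near that of all tested genes. Of the tested genes 3.16% were called on chromosome 4 (23 of 729), 3.65% on chromosome 6 (21 of 575), 3.47% on chromosome 12 (14 of 404) and 3.35% on the others (326 of 9727). Within 5 Mb of Irf2bpl 58 genes were tested, of which 2 rose and 4 fell (10.3%, against 3.36% of all tested genes). Their median r was -0.05. The nearest tested genes were not called, Cipc, a clock protein partner 62.2 kb away (r = 0.09, limma adjusted p = 0.841), Angel1 at 154 kb (r = -0.20, limma adjusted p = 0.511) and Pomt2 at 222 kb (r = 0.25, limma adjusted p = 0.438). Tmed8 lay 281 kb away (chromosome 12, 87166237 to 87200454). Gpatch2l, 589 kb away on the other side, changed by -0.10 ± 0.03 log2 (r = -0.43, limma adjusted p = 0.0477), a call lost in 6 other settings that used both sets of libraries. The acyl-CoA thioesterases Acot3 and Acot4, 2820 and 2832 kb away and similar in sequence, had r = -0.47 and -0.51 (limma adjusted p = 0.0200 and 0.00763). The call of Acot3 was lost with plain CPM (limma adjusted p = 0.0689) and that of Acot4 on ranks (0.0545). Zfyve1 lay 3283 kb away and Sel1l, of endoplasmic reticulum-associated degradation, 4921 kb away (r = 0.49, limma adjusted p = 0.0187), a call lost with plain CPM (0.0576).

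**Figure D5:**
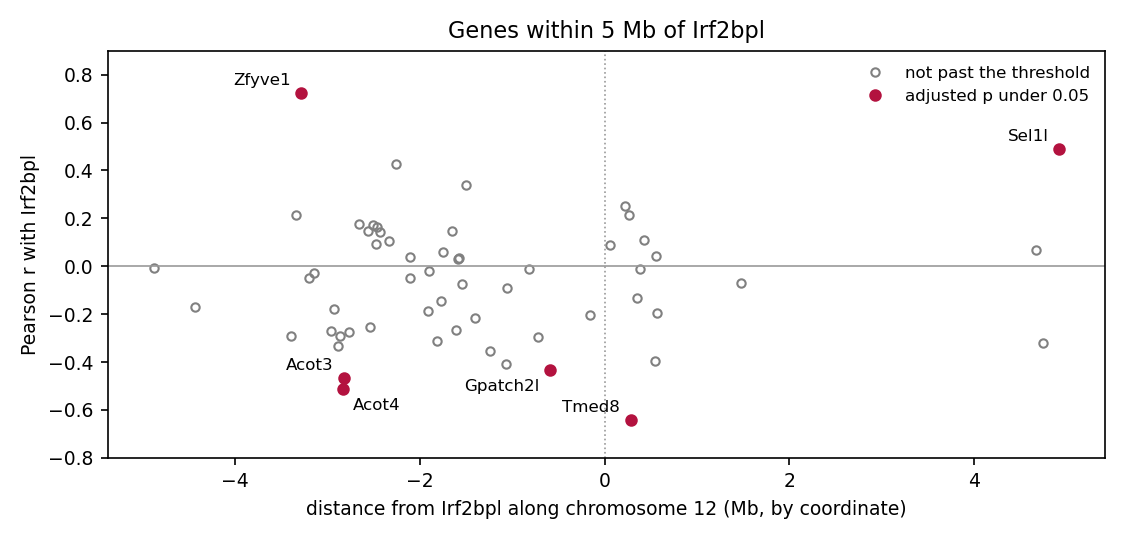
Pearson r with Irf2bpl (vertical) against distance from Irf2bpl in Mb (horizontal) for the 58 tested genes within 5 Mb. Filled points passed an adjusted p of 0.05, and these 6 lie on both sides of the gene, from Zfyve1 (r = 0.72) to Tmed8 (r = -0.64).

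Genes that vary strongly in these livers or that the study names with Irf2bpl were compared as well, and none of them was called with it in the limma fit. Arhgap25 had r = -0.25 (adjusted p = 0.390), Gnmt r = 0.17 (0.622), Capn10 r = 0.10 (0.830) and Rasa3 r = -0.40 (0.0723), the last passing in 2 other settings (edgeR, adjusted p = 0.0498, and with animal number as a covariate, 0.0428). The library with the lowest Irf2bpl also held the lowest Gnmt, 991 normalised CPM. However, the library with the highest Irf2bpl held a low Gnmt too, 1138, rank 48 from the highest. Within the sets of library numbers r of Gnmt was 0.48 in the first and -0.25 in the second. Cyp2d9, of male-type metabolism, had r = 0.11 (limma adjusted p = 0.796), the proliferation marker Mki67 r = -0.04 (limma adjusted p = 0.940) and the urinary protein gene Mup12 r = 0.19 (limma adjusted p = 0.535). The processed pseudogene Gm13394 and the enolase copy Eno1b, which can share reads with near-identical genes, had r = -0.14 and 0.01 (limma adjusted p = 0.706 and 0.979).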

How the data were processed

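Liver RNA of male mice was made into stranded TruSeq libraries. After trimming, HISAT2 placed the reads on GRCm38.p5 and HTSeq 0.11.1 gave counts, from which the authors dropped low genes and derived edgeR-normalised values (labels and methods differ on the trimming tool, and the strand setting of the counting is not given in the sources used here). The deposited values are a normalised expression signal, CPM of a scaled library size, whose columns sum to 886171 to 1120647. Division by the value of 1 read gave whole reads (within 0.01) for 100% of values. The planned tests, meant for normalised CPM, remained on a log2 scale.

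Each gene with a mean of at least 1 was fitted with limma 3.58.1 (R 4.3.3) as log2(value + 0.5) on standardised log2(Irf2bpl + 0.5), 2-sided, with Benjamini-Hochberg adjustment over 11435 genes and a threshold of 0.05. All 50 libraries entered as 1 group. Changes are log2 per SD of Irf2bpl and understate those of low genes. Correlations carry 2-sided permutation p-values (100000 resamples). The clock score and the male-type minus female-type score are differences of mean standardised log2 values. edgeR 4.0.16 on the recovered reads, other pseudocounts, filters and covariates, and subsets of libraries were alternatives, and the one without the library numbered 24 was chosen after seeing the data. The fits were also run on counts simulated independently for each gene, and the outcome is not reported here. Genes named are Irf2bpl, Irf2bp1, Irf2bp2, Irf1 and Irf2, the 12 with the smallest p in each direction, up to 4 of each list by p, the nearest genes on chromosome 12 and 13 genes the series is otherwise described by. Zfp36l1, Klf10, Angptl4, Acot4 and Sel1l are named in addition, after their values were seen. Irf2bpl, the lists and the rules were chosen with earlier results of these data known. Positions are from GENCODE M21 (GRCm38, 12177 of 12185 genes matched) and promoters from RefSeq (GRCm38.p6). Permutations ran in Python 3.11.15 (scipy 1.17.1, numpy 2.4.6, pandas 2.3.3) and plots in matplotlib 3.10.9. Genotypes, LOD scores and some single genes are not reported here.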

Additional observations from a re-analysis of the deposited data

How the results depend on the processing

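The 384 genes that varied with Irf2bpl kept their direction in every alternative fit (300 of 300 where a mean of at least 5 was required). Between 295 and 498 were called in each of the alternatives on both sets of libraries, including 437 with edgeR (373 shared), 368 without the 2 libraries farthest in Irf2bpl, 318 without the 4 that share an animal number and 378 without the library numbered 24. Values scaled to plain CPM gave 295, of which 140 rose and 155 fell. The libraries numbered 1 to 30 alone gave 132 and those numbered 31 to 59 alone gave 24, with 10 and 1 of the listed genes called against 27, and these fits had fewer libraries. Of the 24 leading genes 22 and 10 passed there, and in the other alternatives each that was tested passed. Sign changes touched only genes that were not called, and the cause was not tested. Without the libraries numbered 31 to 59, the log2 change per SD was -0.057 for Cipc, -0.11 for Cyp2d9, -0.14 for Saa1, 0.089 for Mki67, -0.23 for Eno1b and -0.035 for Cux1. Without those numbered 1 to 30 it was 0.065 for Irf2bp2, -0.051 for Gnmt and -0.017 for Capn10. Plain CPM gave -0.0033 for Cipc, -0.012 for Cyp2d9, -0.055 for Saa1, 0.017 for Mki67, -0.018 for Eno1b, -0.0013 for Cux1 and r = -0.06 for Irf2bpl with the share of the 10 highest genes. With GC slope as a covariate the values were -0.00082 for Capn10 and -0.058 for Eno1b, and with length slope -0.043 for Eno1b. Irf2bp2 gave 0.028 without the 2 farthest libraries, and on ranks, where the unit is ranks per SD and not log2, 0.18. Saa1 gave -0.037, -0.0044, -0.0059, -0.052 and -0.026 with set, animal number, share of the 10 highest genes, sex-type score and clock score as covariates and -0.0041 without the library numbered 24, and Mki67 gave 0.0071 and 0.024 with sex-type and clock score. The mean of Irf2bpl was 13.1 from the log2 scale, 13.5 as plain CPM and 13.6 without the 4 libraries, and its difference between the sets stayed between 0.06 and 0.09 log2. No pairing between groups applied, because all libraries form 1 group and no groups share replicate numbers. The 4 libraries that share 2 animal numbers stayed in the main fit as separate libraries, without blocking by animal number. They were left out only in the alternative that called 318 genes. Depth limits genes such as Chac1, Klf4 and Nrarp, with medians of 29.5, 20 and 14 reads.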

Other observations

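Genes named Zfp with a number were counted after the values were seen. Of those tested 7.30% were called, against 3.36% of all tested genes. Of the 213 genes that rose 6 bear such names, and of the 171 that fell 14 do. Over all tested genes of this kind, called or not, the median r with Irf2bpl was -0.09, against 0.00 for all genes. Their exons had a median GC content of 44.1% and those of all tested genes 49.4%, while the medians were 52.8% for the genes that rose and 48.4% for the genes that fell. The slope of a library on GC content had r = 0.16 with Irf2bpl, and with this slope as a covariate 451 genes were called, 347 of them among the 384. Its part in these counts was not tested.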
